A study of Mus musculus with 6 samples.

Results

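The laminin and integrin genes of the mouse lung were taken by symbol from a table of read counts: the laminin alpha, beta and gamma chains, and the integrin alpha and beta subunits numbered in their names, together with Itgav, Itgal, Itgam, Itgax, Itgad and Itgae. This gave 36 genes on 37 rows of a table of 49315, with Itgam on 2 rows. They comprised 11 laminins, 7 leukocyte integrins and 18 other integrins, and every row had reads in at least 1 library. Bulk RNA-Seq of polyA RNA had been made from lung cells of male C57BL/6 mice (C57BL/6J in the methods) which had received either sterile saline (sham-treated) or bleomycin sulfate (BLM-treated), a drug that scars the lung, by oropharyngeal instillation. Lungs were collected some weeks later, lungs of the same group were pooled, and the pool was digested with collagenase to single cells. From each pool, RNA was taken from all cells (unsorted), from cells sorted for Lamp1 on their surface (Lamp1-enriched) and from cells sorted for its lack (Lamp1-depleted). Lamp1 is a protein of the lysosomal membrane, and the study examined its surface form as a mark of senescent cells. There was 1 library for each of the 6 conditions, so that no comparison between single libraries has a replicate check, and the ages of the mice were not used here.

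Laminins are secreted heterotrimers of an alpha, a beta and a gamma chain that polymerise into the sheet of the basement membrane, the layer under the epithelium and around the capillaries of the alveolus. Integrins are the cell's grip on that layer and on other matrix: an alpha subunit pairs with a beta subunit, the pair sets which ligand is bound, and the inner tails reach the actin cytoskeleton. Leukocyte integrins share a structure with the others but serve mainly to bind leukocytes to other cells, to cadherins or to complement.

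Counted reads per library were between 30236120 and 52918696, of which 40819 to 262643 fell on the laminin and integrin genes. In the BLM Lamp1-depleted library the RNA gene Gm26917 held 38.4% of the reads, against at most 7.10% in the others, and its scaling factor was 0.699. Levels below are in CPM, a gene's reads as a share of the library's total, after TMM scaling, a correction for composition. In each list of 3 levels the order is unsorted, Lamp1-depleted and Lamp1-enriched. Lamp1 RNA itself stood at 319, 146 and 491 in the sham libraries and at 501, 111 and 378 in the BLM libraries, so that it was higher in the Lamp1-enriched fraction of both pools.

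The first question was how the genes divided between cells with and without Lamp1 on their surface. Laminins and most integrins of matrix adhesion were higher in Lamp1-enriched cells, and leukocyte integrins were lower. In the sham pool, 22 of 37 rows were higher in the Lamp1-enriched library by a log2 ratio of at least 1, which is 2-fold, and 10 were lower by as much. Across all genes with 10 or more reads in at least 1 library of the pair, 27.5% were higher and 25.2% lower in that comparison. In the BLM pool 20 rows were higher and 8 lower, against 34.3% and 22.6% of all genes. By group, 10 of 11 laminins were higher and 1 lower in each pool. Other integrins gave 12 higher and 1 lower of 18 in the sham pool, and 10 and 2 in the BLM pool. All 8 rows of leukocyte integrins were lower in the sham pool and 5 of 8 in the BLM pool, with none higher in either.

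The median log2 ratio of the laminins was 2.30 in the sham pool and 2.21 in the BLM pool, that of the other integrins 1.93 and 2.25, and that of the leukocyte integrins -2.63 and -1.61, where all genes had medians of -0.01 and 0.29. The second row of Itgam had 10 reads in sham Lamp1-depleted and 0 in sham Lamp1-enriched cells. With that 0 put at a floor of 3 reads, the leukocyte median in the sham pool was -2.39. With both pools fitted together by edgeR's quasi-likelihood test, with treatment as a block and Benjamini-Hochberg adjustment over 20593 genes, 21 of 36 tested rows were higher in Lamp1-enriched cells at an adjusted p under 0.05, 8 were lower and 7 did not pass. The same test called 21.5% of all genes higher and 19.2% lower. It rests on 4 libraries with 1 residual degree of freedom and takes its spread from all genes together, so its p-values say little about the variation between mice.

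Markers of most cell types divided between the fractions as well. The summed level of 7 endothelial markers was 8343 in sham Lamp1-enriched and 1231 in sham Lamp1-depleted cells, and 8080.4 and 858 in the BLM pool, with 7 of 7 markers higher by at least 2-fold in the sham pool and 7 in the BLM pool. The 3 pan-leukocyte markers, Ptprc, Coro1a and Laptm5, summed to 328 in Lamp1-enriched against 3578 in Lamp1-depleted cells of the sham pool and to 314 against 2189 in the BLM pool, and all 3 were lower by at least 2-fold in both. The sums of epithelial, fibroblast and smooth muscle markers were also higher in Lamp1-enriched cells. They were 926, 215 and 239.6 against 144, 79.4 and 26.8 in the sham pool, and 290.1, 934 and 172 against 93.8, 183 and 33.8 in the BLM pool. In the sham pool 7 of 8, 4 of 6 and 6 of 7 of these markers were at least 2-fold higher. In the BLM pool 6, 6 and 7 were, and 0 were lower in either. The sums of some leukocyte lists did not follow those of the pan-leukocyte markers. The 5 dendritic cell markers summed to 234 in Lamp1-enriched and 51.3 in Lamp1-depleted sham cells. Of these 5, however, 2 were higher and 3 lower, and their median log2 ratio was -1.24. In the BLM pool the dendritic sums were 208 and 51.7, with 2 markers higher and 2 lower. The 5 alveolar macrophage markers found summed to 316 and 210.3 in the BLM pool, with 2 higher and 0 lower. In the sham pool their sums were 127 in Lamp1-enriched and 147 in Lamp1-depleted cells, with 1 higher and 1 lower. No marker of these lists was at 0 in any library. The part of cell composition in the ratios of the laminins and integrins was not tested, and in bulk RNA fewer cells of a type and less RNA per cell cannot be told apart.

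**Figure D1:**
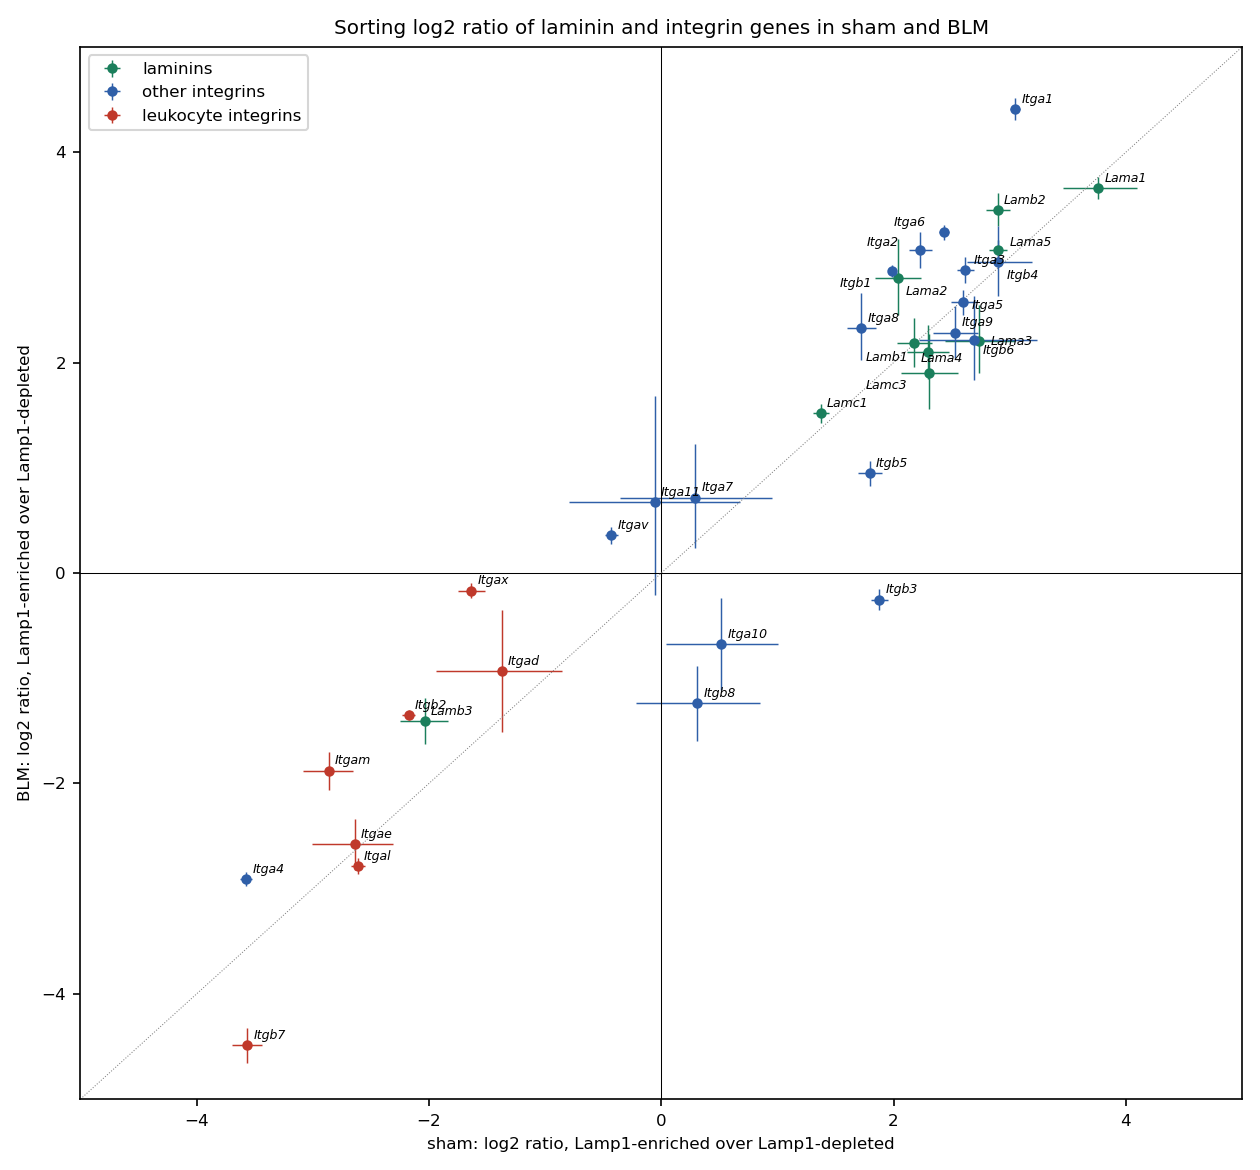
Log2 ratio of Lamp1-enriched over Lamp1-depleted cells for 35 of the 36 genes in the sham pool (horizontal axis) and the BLM pool (vertical axis). Points are single library pairs, lines are 95% Clopper-Pearson intervals that cover counting error only, the dotted line marks equal ratios, and colours mark laminins, leukocyte integrins and other integrins. Of the laminins, Lamb3 alone lies below 0 on both axes, and Itgb3 lies at 1.88 in the sham and -0.25 in the BLM pool.

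The second question was what BLM treatment did in each population. In unsorted cells 11 of 37 rows were at least 2-fold higher in the BLM library and 4 were lower, against 13.9% and 16.0% of all genes. Of the 11 higher rows, 7 were leukocyte integrins, 1 of them the second row of Itgam with 6 reads in sham and 20 with BLM. In Lamp1-enriched cells 7 rows were higher and 2 lower, against 10.2% and 7.86% of all genes. In Lamp1-depleted cells the counts were 7 and 3, against 13.7% and 22.3%. Of those 7 higher rows, Lama1 and Itgb8 were among those that stayed past 2-fold under all 4 scalings tried.

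As a group, laminins had median log2 ratios of BLM over sham of 0.04 in unsorted, 0.01 in Lamp1-depleted and 0.29 in Lamp1-enriched cells, where all genes had -0.07, -0.20 and -0.00. Leukocyte integrins had medians of 1.73, 0.03 and 0.83 in the same order, and other integrins 0.09, 0.03 and 0.09. The sorting and the treatment ratios draw on the same 4 sorted libraries and are not independent of each other.

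**Figure D2:**
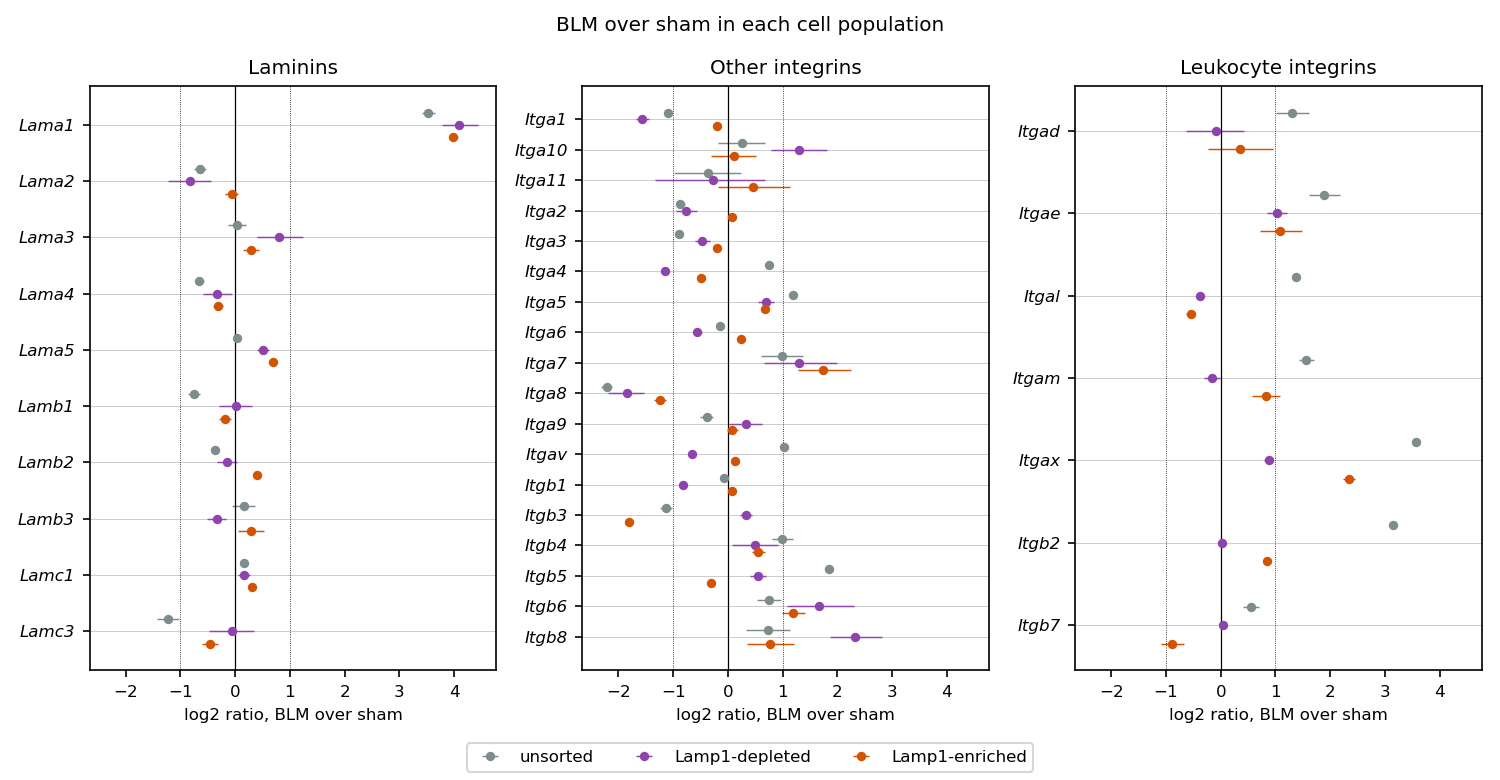
Log2 ratio of BLM over sham for the same 35 genes in unsorted, Lamp1-depleted and Lamp1-enriched cells (horizontal axis; dotted lines at 2-fold). Points are single library pairs and lines are 95% Clopper-Pearson intervals that cover counting error only. Lama1 is at 3.53 in unsorted cells and near 4 in the sorted fractions. Of the leukocyte integrins, Itgax and Itgb2 are farthest to the right in unsorted cells.

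Promoter windows, from 250 bases before to 50 after the start of transcription in RefSeq on GRCm38.p6, were at hand for 22 of the 36 genes. Lama5 and Itga1 are shown for genes higher in Lamp1-enriched cells, Lamb3 for the laminin that was lower there, and Itgam, Itgb7 and Itgax for the leukocyte integrins. Each window is written 5′ to 3′ on the gene's strand. Capitals mark the letters GGGCGG (the GC box, bound by Sp-type factors) and GAGGAAG (a site of the ETS factor PU.1) on either strand, the reverse complements being CCGCCC and CTTCCTC. The TATA box letters TATAAA (reverse complement TTTATA) were searched as well, and no marked sites overlapped.
Lama5, chr2:180225810-180226109, minus strand: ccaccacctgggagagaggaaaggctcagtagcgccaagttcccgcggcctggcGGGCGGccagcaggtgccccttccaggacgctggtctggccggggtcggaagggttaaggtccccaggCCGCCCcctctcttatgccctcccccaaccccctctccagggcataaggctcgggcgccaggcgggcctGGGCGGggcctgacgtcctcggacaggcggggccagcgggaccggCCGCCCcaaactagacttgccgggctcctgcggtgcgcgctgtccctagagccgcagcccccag
Itga1, chr13:115101915-115102214, minus strand: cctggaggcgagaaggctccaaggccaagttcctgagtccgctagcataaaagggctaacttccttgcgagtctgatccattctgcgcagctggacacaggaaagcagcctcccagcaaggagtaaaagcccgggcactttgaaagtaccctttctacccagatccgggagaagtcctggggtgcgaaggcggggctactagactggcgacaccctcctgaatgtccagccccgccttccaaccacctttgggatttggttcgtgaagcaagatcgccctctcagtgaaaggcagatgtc
Lamb3, chr1:193301744-193302043, plus strand: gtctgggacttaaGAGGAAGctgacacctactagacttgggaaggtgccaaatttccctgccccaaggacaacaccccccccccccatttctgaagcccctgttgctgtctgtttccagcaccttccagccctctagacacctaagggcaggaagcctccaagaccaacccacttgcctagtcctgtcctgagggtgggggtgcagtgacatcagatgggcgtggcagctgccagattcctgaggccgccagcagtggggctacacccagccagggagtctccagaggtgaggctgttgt
Itgam, chr7:128062390-128062689, plus strand: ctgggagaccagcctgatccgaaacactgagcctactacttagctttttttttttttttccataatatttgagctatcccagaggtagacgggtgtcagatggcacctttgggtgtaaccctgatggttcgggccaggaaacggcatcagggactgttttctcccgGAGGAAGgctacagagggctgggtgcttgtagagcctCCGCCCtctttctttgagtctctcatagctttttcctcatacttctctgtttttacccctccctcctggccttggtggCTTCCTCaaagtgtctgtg
Itgb7, chr15:102231886-102232185, minus strand: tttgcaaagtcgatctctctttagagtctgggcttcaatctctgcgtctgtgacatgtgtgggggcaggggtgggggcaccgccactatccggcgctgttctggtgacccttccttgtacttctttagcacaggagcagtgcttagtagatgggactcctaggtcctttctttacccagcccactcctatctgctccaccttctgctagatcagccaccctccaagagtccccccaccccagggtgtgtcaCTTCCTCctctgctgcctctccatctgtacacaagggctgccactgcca
Itgax, chr7:128129300-128129599, plus strand: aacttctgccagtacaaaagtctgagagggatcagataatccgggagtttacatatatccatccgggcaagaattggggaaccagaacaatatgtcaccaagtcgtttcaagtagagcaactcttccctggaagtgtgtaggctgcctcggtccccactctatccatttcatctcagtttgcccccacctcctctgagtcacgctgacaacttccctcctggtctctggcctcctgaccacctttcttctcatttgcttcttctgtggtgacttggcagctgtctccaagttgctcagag

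In these windows Lama5 held 4 GC boxes and no PU.1-type letters, and 72.7% of its bases were G or C. Itgam held both kinds, with 2 PU.1-type matches and 1 GC box. Lamb3 and Itgb7 held 1 PU.1-type match each and no GC box, and the windows of Itga1 and Itgax held neither. Another window of Lamb3, chr1:193301993-193302292 and not printed here, held neither as well. Over all 32851 RefSeq windows, 35.7% held the GC box, 13.6% the PU.1-type letters and 13.6% the TATA box. Of the windows of the genes studied here, the GC box was in 3 of 6 for laminins, 8 of 16 for other integrins and 1 of 3 for leukocyte integrins, and the PU.1-type letters were in 2 of 6, 3 of 16 and 2 of 3. The TATA box letters were in none of the 25. A match is a run of letters and was not tested as a binding site.

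The laminin alpha chains carry the globular domains that integrins bind. Lama1 encodes the chain of the early embryonic basement membrane. It stood at 13.0, 1.95 and 26.6 CPM in the sham libraries and at 149, 33.5 and 423 in the BLM libraries. Each BLM library lay above its sham counterpart, and the log2 ratios were 3.53 (95% Clopper-Pearson interval, for counting error only, 3.41 to 3.65), 4.09 (3.78 to 4.43) and 3.99 (3.90 to 4.07) in unsorted, Lamp1-depleted and Lamp1-enriched cells. That is 15.9-fold in Lamp1-enriched cells, the largest treatment ratio of any laminin there, and Lama1 is the only gene of the 36 that was at least 2-fold higher with BLM in all 3 populations besides Itgae. Lama1 was also higher on sorting, with an edgeR quasi-likelihood log2 of 3.61 ± 0.39 (SE) and adjusted p of 1.83e-18, or 0.161 without the treatment block. Fibroblast markers differed with BLM too, their sum being 215 in sham and 934 in BLM Lamp1-enriched cells with 3 of 6 at least 2-fold higher and 0 lower. In Lamp1-depleted cells 3 of these 6 were higher and 3 lower, and in unsorted cells 3 and 1. The sum of the epithelial markers went from 926 to 290.1 in Lamp1-enriched cells, with 3 of 8 lower, 0 higher and a median log2 ratio of 0.08, while 4 were higher and 1 lower in Lamp1-depleted cells, and 1 and 3 in unsorted cells. Their part in the Lama1 result was not tested. Lama1 lies on chromosome 17, 67697259 to 67822647, plus strand, of GRCm38.

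Lama5 encodes the most widespread alpha chain of adult lung. Its levels were 187, 35.2 and 262 in the sham and 191, 50.2 and 422 in the BLM libraries. Lama5 was thus 7.44-fold and 8.42-fold higher in Lamp1-enriched than in Lamp1-depleted cells (edgeR adjusted p = 2.16e-12 over both pools), and its treatment ratios were 0.04, 0.51 and 0.69. Lama4 encodes the alpha chain of endothelial basement membranes. It had 62.9, 9.74 and 44.1 CPM with sham and 40.1, 7.76 and 35.3 with BLM, and its log2 sorting ratio was 2.18 in one pool and 2.18 in the other. The BLM library was the lower of each pair for Lama4, by less than 2-fold.

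Lama2 encodes the alpha chain of muscle and stromal basement membranes. It stood at 38.6, 5.90 and 24.2 in the sham and 24.7, 3.31 and 23.2 in the BLM libraries, with log2 sorting ratios of 2.03 and 2.80. Lama3 encodes the alpha chain of the epithelial laminin that anchors hemidesmosomes. Its levels were 14.7, 2.37 and 15.8 in the sham and 15.1, 4.17 and 19.3 in the BLM libraries, and it was 6.64-fold and 4.63-fold higher in Lamp1-enriched cells. For both genes the Lamp1-depleted library was the lowest of its pool and no treatment ratio reached 2-fold.

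**Figure D3:**
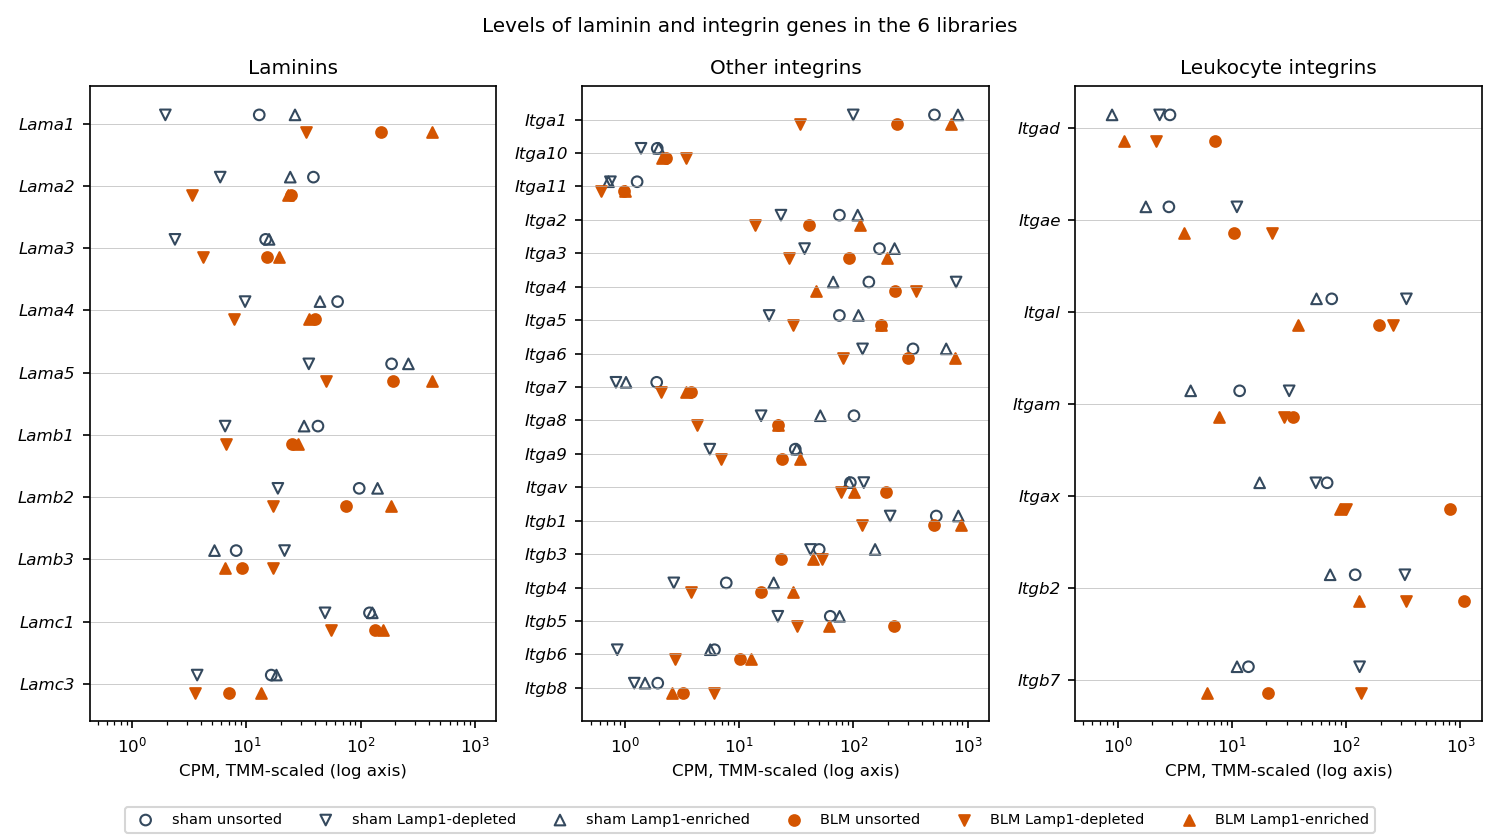
Level of 35 of the 36 genes in the 6 libraries, in TMM-scaled CPM on a log axis, with 1 panel for each group. Open symbols are sham and filled symbols BLM libraries, circles are unsorted, downward triangles Lamp1-depleted and upward triangles Lamp1-enriched cells. In the laminin panel the Lamp1-depleted symbols lie to the left for all genes except Lamb3.

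Among the beta chains, Lamb1 and Lamb2 are the partners found in most basement membranes, and Lamb3 joins Lama3 in the epithelial trimer. Lamb2 stood at 97.2, 18.9 and 141 in the sham and 75.01, 17.0 and 186 in the BLM libraries. Its sorting ratio was 7.45-fold in the sham and 10.9-fold in the BLM pool, with an edgeR quasi-likelihood log2 of 3.08 ± 0.37 (SE) and adjusted p of 3.20e-15. Lamb1 had 42.3, 6.51 and 32.0 CPM in the sham and 25.3, 6.58 and 28.2 in the BLM libraries, and log2 sorting ratios of 2.29 and 2.10. Neither gene reached 2-fold with treatment in any population.

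Lamb3 went the other way on sorting. Its levels were 8.14, 21.6 and 5.26 CPM with sham and 9.08, 17.1 and 6.44 with BLM, so that the Lamp1-depleted library was the highest of each pool and the Lamp1-enriched library the lowest. The log2 sorting ratios were -2.03 (-2.25 to -1.83) and -1.41 (-1.62 to -1.19), and edgeR gave -1.82 ± 0.39 (SE) with an adjusted p of 2.41e-05. Under total-count scaling the BLM ratio was -0.85 and no longer past 2-fold, and the adjusted p over both pools was 0.0904. Per kb of exon, Lamb3 stood at 14.8 times Lama3 in sham Lamp1-depleted and 6.67 times in BLM Lamp1-depleted cells, against 0.541 in Lamp1-enriched cells of either pool.

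The Lamb3 gene lies on chromosome 1, 193207699 to 193343878, plus strand. Of its 9 transcripts in GENCODE M21, 5 start before and 4 within a downstream group whose first start is 94.3 kb from the first of all, and the promoter window printed above belongs to the downstream group. The counts are per gene and do not show which start the reads came from. The neighbour before it, Traf3ip3 on the opposite strand, was chosen after its values were seen and is a gene of lymphoid cells. It stood at 29.0, 153 and 12.0 in the sham and 27.1, 213 and 5.83 in the BLM libraries, highest in Lamp1-depleted cells as Lamb3 was. Its part in the Lamb3 counts was not tested.

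Of the gamma chains, Lamc1 is the common partner and Lamc3 a chain of more restricted expression. Lamc1 stood at 119.5, 48.8 and 126 in the sham and 134, 54.6 and 156 in the BLM libraries, with the smallest sorting ratios of the laminins that were higher, 1.37 and 1.52 on the log2 scale. Lamc3 had 16.5, 3.71 and 18.3 in the sham and 7.07, 3.55 and 13.3 in the BLM libraries, and was the only laminin at least 2-fold lower in BLM unsorted cells, with a log2 ratio of -1.22.

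Levels of different genes were compared per kb of exon. Lama5 held 61.5%, 66.0% and 71.1% of all laminin alpha reads per kb in the sham libraries, and 43.7%, 48.4% and 42.7% in the BLM libraries. The share of Lama1 was 5.02%, 4.31% and 8.50% with sham and 40.1%, 38.0% and 50.2% with BLM. Lama1 was thus the leading alpha chain in BLM Lamp1-enriched cells, at 1.18 times Lama5, where it had been 0.120 times in sham. Lama4 held 19.5% in sham and 8.63% in BLM unsorted cells. Among beta chains, Lamb2 held 85.2% and 88.9% in Lamp1-enriched cells of the sham and BLM pools, and in Lamp1-depleted cells Lamb3 held 46.5% and 42.8%.

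**Figure D4:**
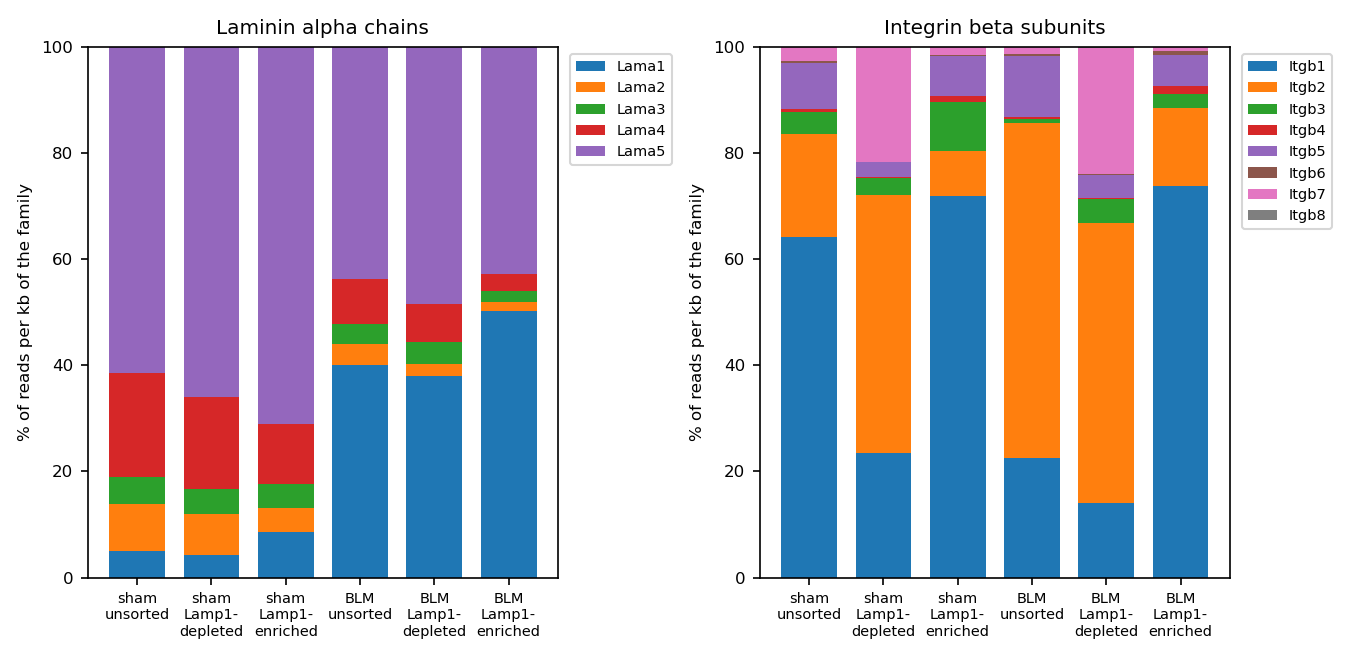
Share of each laminin alpha chain (left) and each integrin beta subunit (right) in the reads per kb of its family, in % for each of the 6 libraries; each bar is 1 library. Lama1 takes 50.2% of the alpha chains in BLM Lamp1-enriched cells, and Itgb2 takes 63.2% of the beta subunits in BLM unsorted cells.

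Among the laminin-binding integrins, Itga6 pairs with Itgb1 on endothelium and with Itgb4 in hemidesmosomes, and Itga3 pairs with Itgb1 on alveolar epithelium. Itga6 stood at 332, 120.2 and 649 in the sham and 299, 81.7 and 770.0 in the BLM libraries, 5.40-fold and 9.43-fold higher in Lamp1-enriched than in Lamp1-depleted cells. Itga3 had 169, 37.4 and 229 CPM in the sham and 91.1, 27.0 and 199 in the BLM libraries, with log2 sorting ratios of 2.62 and 2.88. For both, edgeR gave adjusted p-values of 7.22e-10 and 1.60e-11. The treatment ratios of Itga3 were -0.89, -0.47 and -0.21 on the log2 scale, short of 2-fold.

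Itgb4, whose long tail binds keratin filaments, had 7.70, 2.68 and 20.04 CPM in the sham and 15.4, 3.79 and 29.4 in the BLM libraries. Its sorting ratios were 7.46-fold and 7.74-fold, and its treatment ratios on the log2 scale were 0.99 in unsorted, 0.50 in Lamp1-depleted and 0.55 in Lamp1-enriched cells. Itga7, the laminin receptor of muscle, stood far lower at 1.90, 0.834 and 1.02 in the sham and 3.75, 2.08 and 3.43 in the BLM libraries. It did not pass the sorting test (edgeR adjusted p = 0.632), and was 3.34-fold higher with BLM in Lamp1-enriched cells, from 47 to 187 reads (log2 interval 1.28 to 2.24). In Lamp1-depleted cells, with 38 and 44 reads, it was past 2-fold higher with BLM too, but not under all scalings. In unsorted cells it was 1.97-fold higher.

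Of the collagen-binding integrins, Itga1 and Itga2 are neighbours on chromosome 13 and both pair with Itgb1. Itga1, which binds the collagen of basement membranes, stood at 512, 99.6 and 823 in the sham and 239, 33.8 and 717 in the BLM libraries. Its sorting ratio was 8.26-fold in the sham pool (log2 interval 3.002 to 3.09) and 21.2-fold in the BLM pool (4.30 to 4.52). In the BLM pool this was the largest ratio among those of the 36 genes that were higher in Lamp1-enriched cells. The edgeR quasi-likelihood test gave a log2 of 3.63 ± 0.44 (SE) with an adjusted p of 4.73e-15. With BLM it was lower by log2 ratios of -1.10 in unsorted and -1.56 in Lamp1-depleted cells, and the ratio was -0.20 in Lamp1-enriched cells. Itga2, a receptor for fibrillar collagen and laminin, had 75.4, 23.2 and 109 CPM in the sham and 41.2, 13.7 and 115 in the BLM libraries with sorting ratios of 2.23 and 3.07 on the log2 scale.

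Itga10 and Itga11, receptors of cartilage and of fibroblasts, were near the bottom of the range. Itga10 had 1.92, 1.38 and 1.98 CPM in the sham and 2.28, 3.41 and 2.13 in the BLM libraries, and 33.5% of its exon bases are shared with the overlapping gene Gm42957. Itga11 had 1.28, 0.746 and 0.717 in the sham and 0.989, 0.615 and 0.991 in the BLM libraries. Neither passed the sorting test, with edgeR adjusted p-values of 0.837 and 0.871. At this depth a difference in Itga11 was not detectable, since the intervals of all 5 of its ratios held 0.

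Of the integrins that bind the RGD motif of fibronectin and related proteins, Itga5 forms the main fibronectin receptor with Itgb1. It stood at 75.3, 18.3 and 111 in the sham and 173, 29.6 and 176 in the BLM libraries, 6.05-fold and 5.94-fold higher in Lamp1-enriched than in Lamp1-depleted cells. With BLM it was higher in all 3 populations, with log2 ratios of 1.20, 0.69 and 0.67, of which the first was past 2-fold (0.93 under total-count scaling). Itga8, the receptor of nephronectin on myofibroblasts and pericytes, had 101, 15.6 and 51.3 CPM in the sham and 21.8, 4.31 and 21.7 in the BLM libraries. It was lower with BLM in every population, by 4.64-fold in unsorted, 3.60-fold in Lamp1-depleted and 2.36-fold in Lamp1-enriched cells, and was the only one of the 36 genes to be at least 2-fold lower in all 3.

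Itgav is the alpha subunit shared by the receptors that release TGF-β from its latent form, and Itgb3, Itgb5, Itgb6 and Itgb8 are its beta partners. Itgav stood at 94.0, 123 and 91.5 in the sham and 191, 78.3 and 100.5 in the BLM libraries, and did not pass the sorting test (edgeR adjusted p = 0.795). Itgb6, the epithelial partner, had 6.08, 0.855 and 5.59 CPM in the sham and 10.2, 2.75 and 12.8 in the BLM libraries. It was 6.46-fold and 4.65-fold higher in Lamp1-enriched cells, and with BLM 2.29-fold higher in those cells. With BLM it was past 2-fold higher in Lamp1-depleted cells too, on 39 and 58 reads, but not under all scalings. In unsorted cells it was 1.68-fold higher. Itgb8 was low at 1.94, 1.21 and 1.5 in the sham and 3.22, 6.06 and 2.57 in the BLM libraries. Its highest library was BLM Lamp1-depleted, 4.97-fold over sham Lamp1-depleted, and the sorting test was not passed (edgeR adjusted p = 0.428).

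Itgb3, the beta subunit of platelets and of activated endothelium, had 50.2, 42.1 and 155 CPM in the sham and 23.0, 53.02 and 44.5 in the BLM libraries. The sham Lamp1-enriched library stood apart, and the other 5 lay between 23.0 and 53.02. With BLM, Itgb3 was 3.48-fold lower in Lamp1-enriched cells and 2.18-fold lower in unsorted cells, and the log2 ratio was 0.33 in Lamp1-depleted cells. The 6 platelet markers were lower in the same libraries, their sum being 929 in sham and 132 in BLM Lamp1-enriched cells and 284 and 49.2 in unsorted cells, with 6 of 6 lower by at least 2-fold in the former. Among them Itga2b, the platelet partner of Itgb3 and not one of the 36 genes, stood at 114 and 24.9 in Lamp1-enriched cells. In Lamp1-depleted cells 3 of the 6 platelet markers were at least 2-fold lower with BLM and 0 higher. On sorting in the BLM pool all 6 were at least 2-fold higher in Lamp1-enriched cells, where the log2 ratio of Itgb3 was -0.25. The part of platelets in the Itgb3 result was not tested. Over both pools Itgb3 did not pass the sorting test (edgeR adjusted p = 0.101, and 0.277 with the unsorted libraries added and 0.00646 with these and without the BLM Lamp1-depleted library).

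Itgb5, a vitronectin receptor subunit of macrophages and many other cells, had 62.7, 21.8 and 75.6 CPM in the sham and 225, 31.9 and 61.4 in the BLM libraries. The BLM unsorted library was the highest by far, 3.59-fold over sham unsorted and 3.67-fold over the higher of the sorted BLM libraries. On sorting, Itgb5 was higher in Lamp1-enriched cells with an edgeR log2 of 1.28 ± 0.35 (SE) and an adjusted p of 0.00107, which became 0.0962 with total-count scaling, 0.0298 with the unsorted libraries added, and 0.119 with these and without the BLM Lamp1-depleted library.

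Itga4 and Itga9 form a pair by sequence and bind VCAM-1, fibronectin and related ligands. They divided on sorting. Itga4, which serves lymphocytes, stood at 136, 792 and 66.5 in the sham and 229, 356 and 47.4 in the BLM libraries, 11.9-fold and 7.50-fold lower in Lamp1-enriched than in Lamp1-depleted cells (edgeR adjusted p = 3.99e-14). Itga4 was the only one of the 18 other integrins to pass the test in that direction. Itga9, found on lymphatic endothelium and smooth muscle, had 31.0, 5.53 and 31.9 in the sham and 23.7, 6.91 and 33.7 in the BLM libraries and was 5.77-fold and 4.87-fold higher there (edgeR adjusted p = 8.39e-09). Itgb1, the partner of most alpha subunits above, stood at 531, 209.7 and 829 in the sham and 506, 119 and 871 in the BLM libraries, with log2 sorting ratios of 1.98 and 2.87.

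The leukocyte integrins were at their highest in Lamp1-depleted or in BLM unsorted cells. Itgal, the alpha subunit of LFA-1, which binds ICAMs, stood at 74.6, 336 and 54.9 in the sham and 194, 258 and 37.5 in the BLM libraries. Its log2 sorting ratio was -2.61 in the sham and -2.78 in the BLM pool, and the edgeR adjusted p was 6.96e-12. Itgae, which binds E-cadherin on epithelium and marks tissue T cells and some dendritic cells, had 2.80, 11.03 and 1.76 CPM in the sham and 10.4, 22.5 and 3.76 in the BLM libraries. It was lower in Lamp1-enriched cells by 6.24-fold and 5.96-fold, and with BLM it was 3.71-fold, 2.04-fold and 2.13-fold higher in unsorted, Lamp1-depleted and Lamp1-enriched cells, the second of which did not stay past 2-fold under all scalings. Itgb7, its beta partner and that of Itga4 on gut-homing cells, stood at 13.9, 131 and 11.1 in the sham and 20.5, 135 and 6.00 in the BLM libraries. Itgb7 was 11.8-fold and 22.4-fold lower in Lamp1-enriched cells of the sham and BLM pools, with an edgeR log2 of -4.12 ± 0.39 (SE) and an adjusted p of 3.42e-24. T cell markers went the same way, with sums of 359 in Lamp1-depleted and 17.7 in Lamp1-enriched sham cells and all 5 lower by at least 2-fold, and so did B cell markers, with 2108 and 114.

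Itgam, Itgax and Itgad lie side by side on chromosome 7 and encode the alpha subunits of myeloid cells. Itgam, the subunit of complement receptor 3, had 11.7, 31.7 and 4.35 CPM in the sham and 34.5, 28.4 and 7.71 in the BLM libraries. It was 7.27-fold and 3.68-fold lower in Lamp1-enriched cells (edgeR adjusted p = 1.27e-09). These counts are uncertain, since 68.7% of the exon bases of Itgam are shared with the gene of the second Itgam row (ENSMUSG00000108596), which had 6, 10 and 0 reads in the sham and 20, 7 and 12 in the BLM libraries. That row accounts for 1 of the leukocyte calls in the sham sorting comparison. It also accounts for 1 of those with BLM in unsorted cells, where it had 6 and 20 reads, and 1 in Lamp1-enriched cells, where it had 0 and 12 reads.

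Itgax encodes CD11c, carried by alveolar macrophages and dendritic cells. It stood at 68.0, 54.2 and 17.5 in the sham and 802, 99.5 and 88.7 in the BLM libraries, so that BLM unsorted cells lay far above the rest. With BLM it was 11.8-fold higher in unsorted cells (log2 interval 3.51 to 3.61), 5.08-fold in Lamp1-enriched and 1.84-fold in Lamp1-depleted cells. Its sorting ratio on the log2 scale was -1.63 in the sham and -0.17 in the BLM pool. Over both pools edgeR gave -0.99 ± 0.35 (SE) and an adjusted p of 0.0132, a call that was lost with total-count scaling (0.582), with all genes with at least 1 read (0.0557), with all 6 libraries (0.0963) and without the treatment block (0.552). Itgad, a subunit of tissue macrophages, had 2.86, 2.33 and 0.891 CPM in the sham and 7.07, 2.18 and 1.14 in the BLM libraries and did not pass the sorting test (edgeR adjusted p = 0.11, and 0.0553 with the unsorted libraries added and 0.0227 with these and without the BLM Lamp1-depleted library).

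Itgb2 is the beta subunit that Itgal, Itgam, Itgax and Itgad share. Its levels were 119.7, 326 and 72.3 in the sham and 1063, 331 and 129.9 in the BLM libraries. It was 4.51-fold and 2.55-fold lower in Lamp1-enriched cells (edgeR adjusted p = 7.48e-06, but 0.188 under total-count scaling), and 8.88-fold higher with BLM in unsorted cells. Per kb of exon, Itgb2 stood at 0.301 times Itgb1 in sham unsorted and 2.81 times in BLM unsorted cells. Of the beta subunits, Itgb1 held 72.0% and 73.8% of reads per kb in Lamp1-enriched cells of the sham and BLM pools. In Lamp1-depleted cells Itgb2 held 48.7% and 52.7% and Itgb7 21.5% and 23.7%.

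In the BLM pool, 4 of 37 rows were at least 2-fold higher in unsorted cells than in both sorted fractions, namely Itgax (8.05-fold over the higher of the fractions), Itgb5 (3.67-fold), Itgad (3.23-fold) and Itgb2 (3.21-fold). In the sham pool there were 0. Of all genes, 9.35% were so in the BLM pool and 7.69% in the sham pool, so that the BLM count was near the share of all genes. Macrophage markers stood highest in the same library. The 6 markers of monocytes and interstitial macrophages summed to 17877 in BLM unsorted against 2606 and 2308 in the sorted BLM libraries and 2102 in sham unsorted cells, with 5 of 6 at least 2-fold higher with BLM. The 5 alveolar macrophage markers that the table held summed to 2545, 210.3 and 316 in the BLM libraries. Their part in the levels of these integrins was not tested.

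Proteins around the laminins and integrins were read from 3 lists. Of 11 basement membrane partners and other laminin receptors, 9 were higher in Lamp1-enriched cells and 0 lower by edgeR's quasi-likelihood test over both pools, with a median log2 of 2.38 where all genes had 0.03. That test called 21.5% of all genes higher and 19.2% lower. The leading ones were Tinagl1 (3.54), Sparc (3.30), Ntn4 (3.15), a netrin that binds laminin, and Bcam (3.14), a receptor of Lama5. With BLM, Sparc (1.61) and Hspg2 (1.39), which encodes perlecan, were the members at least 2-fold higher in Lamp1-enriched cells. That is 2 of 11 higher and 0 lower, against 10.2% and 7.86% of all genes.

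Of 15 integrin ligands other than laminins and collagens, 14 were tested, and 11 were higher and 0 lower in Lamp1-enriched cells, against the same 21.5% and 19.2% of all genes, led by Vcam1 (3.37), the ligand of Itga4. With BLM in Lamp1-enriched cells 4 were higher and 3 lower by at least 2-fold, against 10.2% and 7.86% of all genes. The log2 ratios were largest for Tnc (4.22), Spp1 (3.17), Vtn (-2.87) and Fn1 (2.82), the genes of tenascin-C, osteopontin, vitronectin and fibronectin. In unsorted cells the same 4 ligands led, at 3.17, 5.94, -2.74 and 3.95. Of the 7 RGD-binding integrins, 3 were at least 2-fold higher there and 2 lower, against 13.9% and 16.0% of all genes. Itga5 and Itgav had 1.20 and 1.02, or 0.93 and 0.76, short of 2-fold, under total-count scaling. Itgb5 had 1.85, while Itga8 and Itgb3 had -2.21 and -1.12.

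Of 23 proteins of the integrin tail and of adhesions, 22 were tested on sorting, and 15 were higher and 4 lower in Lamp1-enriched cells. The share of all genes called was 21.5% higher and 19.2% lower, so that the lower count of the list was near the background. Fermt2, the kindlin of most tissues, had an edgeR log2 of 3.39 and Parva, a parvin of the same kind, 3.22, both called higher. Parvg, the parvin of blood cells, had -3.11 and Ptk2b, a kinase of the focal adhesion family, -3.23, both called lower. With BLM in Lamp1-enriched cells, Fermt3, the kindlin of platelets and leukocytes, had a log2 ratio of -1.37 and Tns3 -1.02. These were the 2 of 22 tested that were at least 2-fold lower, and 0 were higher. Across all genes 7.86% were lower and 10.2% higher, so that the lower count was near the background.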

How the data were processed

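The deposited values were raw read counts per Ensembl gene, 1 column for each of the 6 libraries, to which the authors had applied no normalization. The submitters' processing notes name Trimmomatic 0.36, STAR 2.5.2b, featureCounts, Subread 1.5.2, DESeq2 and the build GRCm38, with no role or order; the annotation and strand setting are not given in the sources used here, so that reads of overlapping antisense genes could not be told apart. Groups came from the sample labels. The genes, the groups by role, the marker lists and the tests were chosen with earlier results of these data known.

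Counts were scaled with TMM factors of edgeR 4.0.16 under R 4.3.3. Levels are CPM on the scaled totals. To log2 ratios, 0.5 reads per library were added as a prior in proportion to its size (Python 3.11.15, scipy 1.17.1, numpy 2.4.6, pandas 2.3.3), and a gene entered a comparison with 10 or more reads in at least 1 library of the pair. A gene was counted as higher or lower at a log2 ratio of at least 1 in size. The 95% Clopper-Pearson interval of a ratio covers counting error only. With 1 library per condition no p-value was computed for a ratio. Lamp1-enriched and Lamp1-depleted cells were compared over both pools by edgeR's quasi-likelihood test on genes kept by filterByExpr, with treatment as a block and Benjamini-Hochberg adjustment. The spread was pooled across genes, with a biological coefficient of variation of 0.316. The SE printed with an edgeR log2 was derived from the test, as the size of the log2 divided by the square root of the F statistic. It rests on that pooled spread. Positions, exon lengths and overlaps were taken from GENCODE M21, which held 49056 of the 49315 genes, and reads per kb used the exon length of the gene. Every gene with at least 50 reads in 1 library was named, except 1 that is counted in the groups and not reported here. Alternatives were DESeq2 1.42.0 size factors and Wald test, total counts, total counts outside Gm26917, a prior count of 2, filters of 1 and 50 reads, a log2 ratio of at least 2, thinned counts and, for the test, every gene with a read, the unsorted libraries added, no treatment block, and the unsorted libraries added with BLM Lamp1-depleted left out (5 libraries). Total counts outside Gm26917 and the 5 libraries were chosen after seeing the data. The programs were tested on simulated data.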

Additional observations from a re-analysis of the deposited data

Results flagged for a closer look

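For 11 pairs of ratios, the intervals for counting error lay on opposite sides of 0 in the compared pools or fractions. Each ratio comes from single libraries, and the difference was not tested in any of them. On sorting (Lamp1-enriched over Lamp1-depleted, sham pool and then BLM pool), the log2 ratios were -0.43 and 0.36 for Itgav, 0.51 and -0.68 for Itga10, and 1.88 and -0.25 for Itgb3. For BLM over sham (Lamp1-enriched and then Lamp1-depleted cells), Itgb3 had -1.80 and 0.33 and Itgb5 had -0.30 and 0.55. The other genes in that comparison were positive in Lamp1-enriched and negative in Lamp1-depleted cells: Lamb3 with 0.29 and -0.34, Itga6 with 0.25 and -0.56, Itgav with 0.14 and -0.65, Itgam with 0.82 and -0.16, Itgb1 with 0.071 and -0.82, and Itga2 with 0.079 and -0.76. The median of all genes in Lamp1-depleted cells was -0.20, and the BLM Lamp1-depleted library is the one with a large share of Gm26917. Of these 11 pairs, the ratios of Itgb3 in Lamp1-enriched cells and on sorting in the sham pool were past 2-fold.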

How the results depend on the processing

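No call of a gene reversed its direction under any of the alternatives tried. The counts of genes past 2-fold depended most on the scaling, since total counts shifted the median log2 of all genes by 0.56 in the BLM sorting comparison, -0.72 for BLM over sham in Lamp1-depleted cells, -0.26 in unsorted cells and -0.17 in the sham sorting comparison, and DESeq2 size factors shifted it by -0.15 and 0.15 in the first and second of these. With total counts, 5 rows in place of 8 were lower on sorting in the BLM pool (Lamb3, Itgb2 and Itgb8 were lost), 7 in place of 4 were lower with BLM in unsorted cells, and in Lamp1-depleted cells 3 in place of 7 were higher and 12 in place of 3 lower. With total counts outside Gm26917 and with DESeq2 size factors all these counts were within 1.5 times the first. At a log2 ratio of at least 2, 4 rows were lower on sorting in the BLM pool, 3 were higher and 1 lower with BLM in unsorted cells, 3 higher and 0 lower in Lamp1-enriched cells, and 3 higher and 0 lower in Lamp1-depleted cells. Under edgeR's quasi-likelihood test, 5 rows in place of 8 were lower on sorting with total counts, where Lamb3, Lamc1, Itgb2, Itgb5 and Itgax lost their calls. Across all genes that test called 4422 higher and 3964 lower, 2872 and 1564 with total counts, and 2685 and 2392 without the treatment block. Without the block, Lama1 (adjusted p 0.161), Itga8 (0.0940), Itgb6 (0.0738) and Itgax (0.552) were among the rows that lost their calls. With the unsorted libraries added and the BLM Lamp1-depleted library left out, Itgb5 lost its call and Itgad and Itgb3 gained one, none of which happened with the unsorted libraries added alone. The cause of these shifts was not tested. With 1 library per condition no replicate could be left out. No paired analysis was possible because each condition has 1 library, beyond the block that pairs the fractions of each pool. Genes with few reads, such as Itga11, Itga7, Itga10, Itgad and Itgb8, carry wide intervals.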
